A study of Mus musculus with 24 samples.

Results

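The HOX cluster genes are the homeobox transcription factor genes that lie side by side in the Hoxa, Hoxb, Hoxc and Hoxd clusters of the mouse genome. Members were taken by symbol, as every probe whose accession mapped to Hoxa, Hoxb, Hoxc or Hoxd followed by digits only, and no measured value entered the choice. Of the 39 genes in the 4 clusters, 37 had a probe on the array, with 44 probes in all. After a filter on brightness, 26 of the 37 were tested, among 22394 genes tested in all. These 26 comprised all 11 Hoxa genes, 9 of the 10 Hoxb genes, 3 of the 9 Hoxc genes and 3 of the 9 Hoxd genes. No probe was matched to Hoxc11 or Hoxd8.

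The samples were 24 cultures of R1, a mouse embryonic stem (ES) cell line, infected by lentivirus with a short hairpin RNA. The 8 groups of 3 biological replicates were the non-targeting hairpin shNTC and both Cdk8 hairpins (shCdk8-1 and shCdk8-2) on day 8 after infection, and on day 13 these same hairpins together with both hairpins against Med12 (shMed12-1, shMed12-2). Both targets belong to the part of the Mediator coactivator that carries its kinase, and each knockdown group was compared with shNTC of its day. Each array carried a sample in the red channel (Cy5) against a universal reference RNA, a mixture of mouse cell lines, in the green channel (Cy3), so a value is a log2 ratio of sample over reference and 1 unit is a doubling. The dyes were not swapped, and the labels do not say what separated the biological replicates, so the tests weigh differences against the spread of these 3 cultures, which may be technical. In a population of cells, a change in the number of expressing cells cannot be told apart from a change in RNA per cell.

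HOX proteins specify position along the body axis. Genes with the same number in different clusters are paralogs, low numbers act in the hindbrain and neck and high numbers towards the tail, and the order along the chromosome follows the order of use in the embryo. In undifferentiated ES cells the clusters are held largely silent by Polycomb group repressors. Retinoic acid, which signals through nuclear receptors, is the classical inducer of the low-numbered genes, and MEIS and PBX proteins bind DNA together with HOX proteins.

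Of the genes that passed the test with at least 1 hairpin, among them Hoxb2, Hoxb13, Hoxc9, Hoxa2, Hoxb7, Hoxa7 and Hoxa4, Hoxa2 and Hoxa7 have a promoter entry in RefSeq's table on build GRCm38.p6, and both are shown. Each runs 5′ to 3′ on the gene's own strand, the minus strand, from 250 bases before the start of transcription. The capitals mark matches on either strand to CCAAT, the CCAAT box, or TGATTGAT, a joint PBX and HOX site. The Hoxa2 window is at chr6:52164782-52165081 and the Hoxa7 window at chr6:52218524-52218823.

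Hoxa2: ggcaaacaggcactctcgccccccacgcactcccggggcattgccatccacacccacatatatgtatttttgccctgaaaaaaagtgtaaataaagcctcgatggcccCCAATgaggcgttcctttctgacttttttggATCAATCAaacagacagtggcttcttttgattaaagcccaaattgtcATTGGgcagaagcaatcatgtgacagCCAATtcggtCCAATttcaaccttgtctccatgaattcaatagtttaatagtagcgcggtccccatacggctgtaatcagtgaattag
Hoxa7: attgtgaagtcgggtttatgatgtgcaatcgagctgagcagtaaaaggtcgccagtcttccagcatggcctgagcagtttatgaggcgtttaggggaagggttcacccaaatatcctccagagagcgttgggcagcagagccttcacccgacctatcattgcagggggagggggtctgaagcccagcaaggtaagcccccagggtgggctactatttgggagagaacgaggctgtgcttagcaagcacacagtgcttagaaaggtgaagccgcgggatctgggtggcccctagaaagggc

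Hoxa2 carries both motifs and Hoxa7 neither. The motif TGATTGAT was found in 2 of 24 HOX promoters (of 22 genes), those of Hoxa2 and Hoxd11, and in 0.7% of all 32851 promoters in the table. CCAAT was found in 15 of the 24 HOX promoters and in 37.4% of all promoters. The core site of retinoic acid receptors, AGGTCA, was found in 7 of the 24 (Hoxa5, Hoxb4, Hoxc4, Hoxd10, Hoxd3, Hoxd4 and Hoxd8) and in 16.3% of all, TATAAA in 4 of the 24 and 13.6% of all, and the homeodomain core TAATTA in 2 of the 24 (both of them Hoxd11) and 5.3% of all; both strands were searched and overlapping matches were allowed. HOX promoters held a median of 14.5 CG pairs in this window, against 7 over all promoters. A motif match is a description of these letters and says nothing of binding.

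The labels and the tissue were checked first. Cdk8 read -0.51 ± 0.08 (SD, n = 3) with shNTC on day 8 and changed by -0.71 with shCdk8-1 and -0.31 with shCdk8-2 (limma, adjusted p = 1.5e-06 and 0.0075). Its changes on day 13 were -0.95 and -0.64 (adjusted p = 5e-08 and 1.1e-05). The Med12 probe changed by -1.0 under shMed12-1 and -0.88 under shMed12-2 (adjusted p = 9.5e-09 and 6.6e-08). All 10 measured ES cell markers of a list of 11, among them Pou5f1, Sox2, Zfp42 and Esrrb, were well above background on all 24 arrays.

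Values from 2 arrays stood apart from their groups. The model that estimates the background met 4 extreme spots on the first shCdk8-1 array of day 8 and 7 on the third shMed12-1 array of day 13, spots whose local background exceeded the spot by more than 50 intensity units. On these arrays the fitted background mean in Cy5 was -91.9 and -175, against -19.9 to -12.5 on the other 22 arrays, and their log2 ratios were compressed, with a slope of 0.79 on the other arrays of their group in both cases (0.97 to 1.12 on the other 22). Refitting the background without those spots, a step chosen after seeing the data, gave slopes of 0.97 to 1.03. All groups share 1 estimate of the spread, so these arrays enter the error of every comparison. Each result is therefore given with the background fitted on all spots, as designed, and again with the refitted background where the call changes.

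A HOX gene is called well above background here when the scanner software flagged its probe so in Cy5. The brightness filter kept 29 of 44 HOX probes, beside 28303 of 41174 probes in all. Over the 24 arrays the median was 26.5 of 44 HOX probes well above background, beside a median of 67.2% of all spots. By that flag 10 HOX genes were detected on all 24 arrays (among them Hoxa3, Hoxa6, Hoxa7, Hoxb2, Hoxb6, Hoxb7, Hoxb9, Hoxc4 and Hoxc9), and the other 27 on 1 to 23 arrays. In the reference RNA 26 HOX genes were detected on all 24 arrays, 8 on some, and Hoxb1, Hoxd1 and Hoxd13 on none. The ratios of Hoxb1 and Hoxd1 therefore rest on a reference signal that was not well above background.

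The clusters differed in detection. In Hoxa the least often detected genes were Hoxa11, on 11 arrays, Hoxa2 and Hoxa5, on 13 each, and Hoxa13, Hoxa9 and Hoxa10, on 15, 17 and 18. In Hoxb, Hoxb8 was detected on 2 arrays and did not enter the test, and Hoxb3 and Hoxb5 were each detected on 11. Hoxc4, Hoxc6 and Hoxc9 were detected on 24, 23 and 24 arrays, against 7 for Hoxc5, 1 each for Hoxc8 and Hoxc10, and 3 for Hoxc12. Hoxc13 was detected on 22 arrays and passed the filter on brightness, but left the test because of a missing value; fitted without that array it changed by 0.045 to 0.28 across the 6 hairpin comparisons, with adjusted p from 0.14 to 0.87. Hoxd12 was detected on 23 arrays, Hoxd4 on 17 and Hoxd1 on 14, against 9 for Hoxd9, 7 for Hoxd3, 2 each for Hoxd10 and Hoxd11, and 1 for Hoxd13. Hoxd13 and Hoxc10, high-numbered genes that pattern limb and tail, were thus each well above background on 1 array alone.

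**Figure D1:**
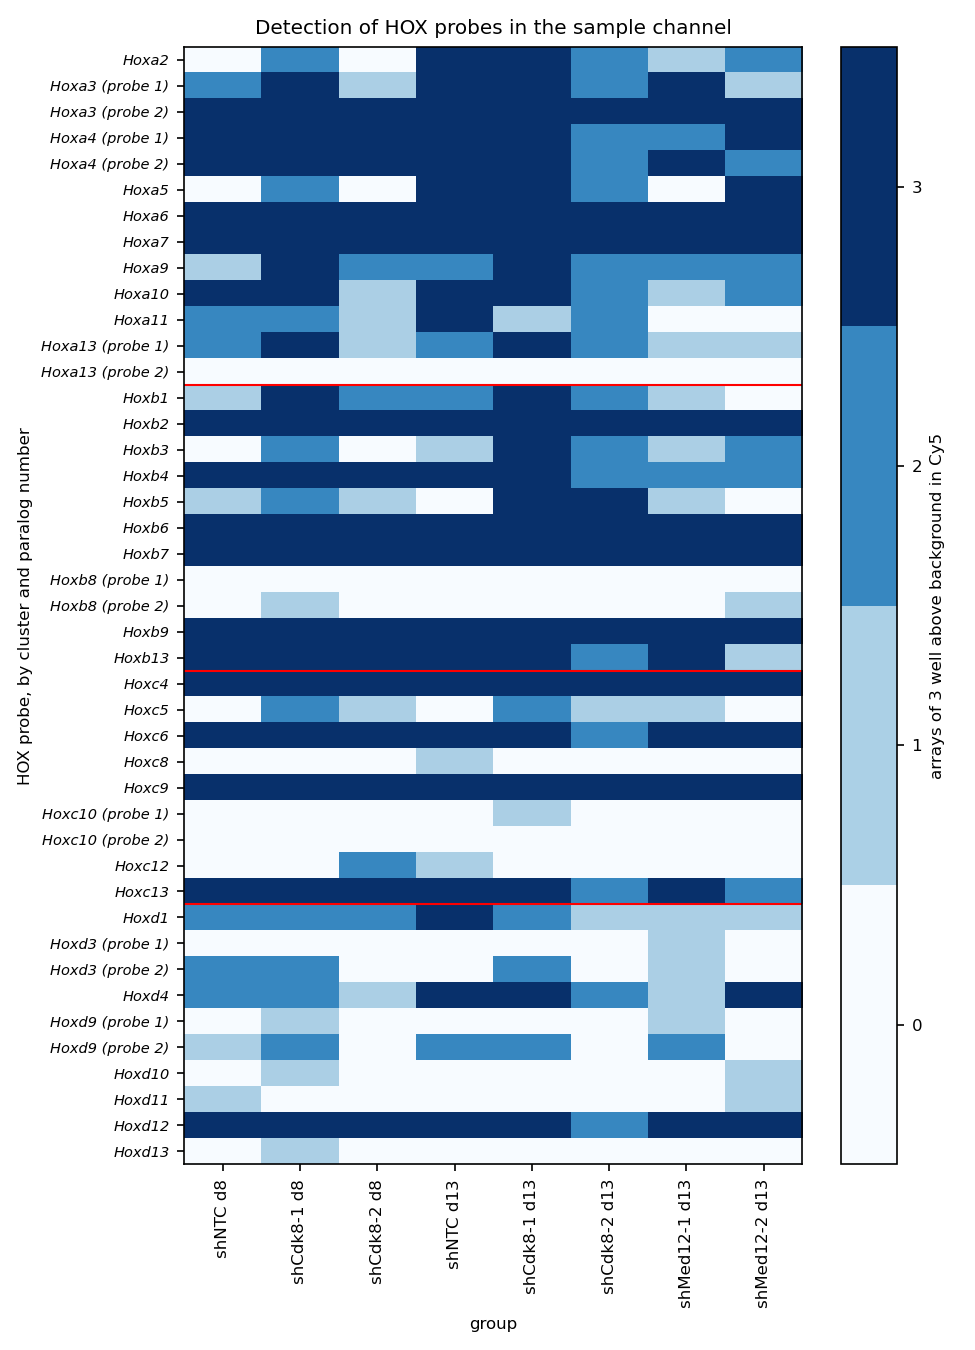
Rows are 43 of the HOX probes by cluster and number, columns the 8 groups, and the colour gives on how many of the 3 arrays of a group the probe was well above background in Cy5. Rows such as Hoxa7, Hoxb2, Hoxb9 and Hoxc9 are full in every group, while most of Hoxd is pale.

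Detection was compared with the brightness of each array. The number of HOX probes well above background ran from 11 of 44 on the third shCdk8-2 array of day 13, where 48.9% of all spots were well above background, to 36 on the second shCdk8-1 array of day 8, where 76.1% were. The 3 shNTC arrays of day 8 had 19 to 27 such probes and those of day 13 had 26 to 29, so these ranges overlapped. The shCdk8-1 arrays of day 13 had 27 to 33. No difference in detection between groups was tested apart from brightness.

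**Figure D2:**
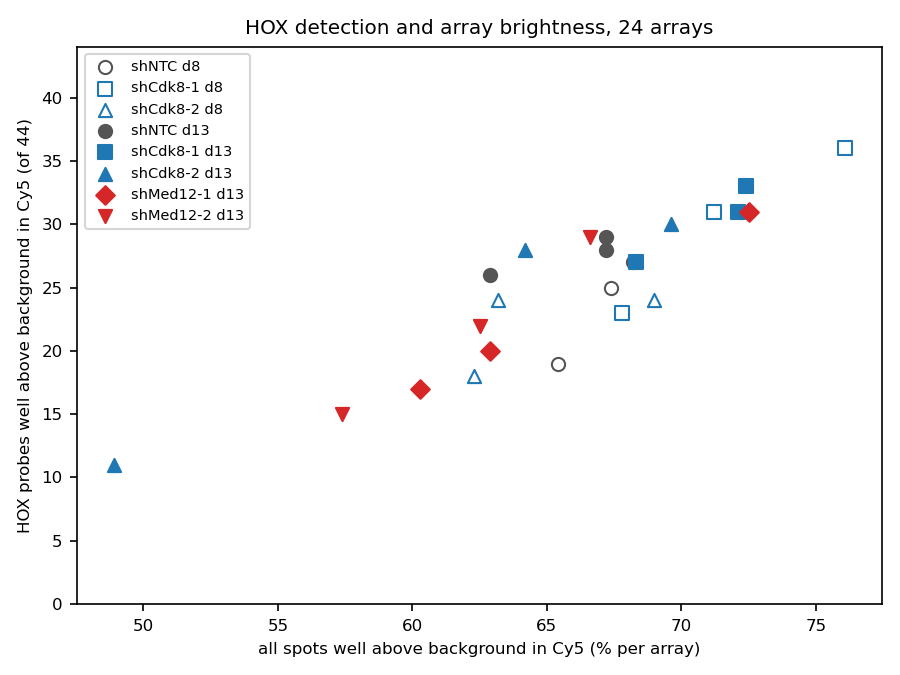
Each point is 1 of 24 arrays, with the percent of all spots well above background in Cy5 on the x axis and the number of the 44 HOX probes well above background on the y axis. The array with 48.9% of spots has 11 HOX probes and the array with 76.1% has 36.

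Relative to the reference, most HOX genes were low in control cells. A ratio compares a gene with its own level in the reference and gives no order of RNA amounts between genes. The lowest ratio with shNTC was that of Hoxc9, at -4.79 ± 0.16 (SD, n = 3) on day 8 and -4.21 ± 0.042 on day 13. Next were Hoxc6, at -2.96 ± 0.18 and -2.88 ± 0.090, and Hoxa11, at -2.63 ± 0.11 and -2.73 ± 0.083, whose arrays overlapped on day 13 and not on day 8. Hoxb7, Hoxb6 and Hoxa10 followed, at -2.31, -2.21 and -2.20 on day 13, with overlapping arrays. Genes with means above the reference on both days included Hoxd1, Hoxb1, Hoxd12, Hoxa3, Hoxa6 and Hoxa13, with Hoxd1 at 0.58 ± 0.091 and 0.43 ± 0.088. Hoxa6 on day 8 and Hoxa13 on both days also had arrays below the reference.

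By paralog number, as means over both days, group 2 lay at -1.39 and -0.70, group 5 at -1.78 and -1.15, group 7 at -2.32 and -1.43, and group 9 from -4.50 to -1.53. Group 6 spread from -2.92 for Hoxc6 to 0.11 for Hoxa6. Group 13 lay at -0.36 for Hoxb13 and 0.15 for Hoxa13, so the ratio did not fall steadily with paralog number.

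Between day 8 and day 13 of the control hairpin, 5 HOX genes rose and none fell. Among them, Hoxc9 rose by 0.59 (SE 0.17, adjusted p = 0.023), Hoxa2, a hindbrain gene, by 0.53 (adjusted p = 0.0091), Hoxa7 by 0.29 (adjusted p = 0.048) and Hoxd12 by 0.28 (adjusted p = 0.0097). That is 19.2% of the 26, beside 17.6% of all 22394 genes called (8.56% higher and 9.01% lower). Hoxc9 read -4.62, -4.83 and -4.93 on day 8 and -4.17, -4.25 and -4.19 on day 13, so the days did not overlap. Hoxa2 was not well above background on any shNTC array of day 8 and was so on all 3 of day 13. Against its Cy5 level on day 8, the level on day 13 was 1.4-fold higher, which is not a bound set by detection.

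The arrays of these groups share 2 slides, and within them Hoxa2 rose by 0.46 and 0.82, Hoxc9 by 0.37 and 0.64, Hoxa7 by 0.20 and 0.26 and Hoxd12 by 0.29 and 0.30. With the slide as a block, Hoxa7 (adjusted p = 0.11) and Hoxc9 (adjusted p = 0.11) were no longer called. Leaving out the second shNTC array of either day left 1 gene called. With the refitted background 7 HOX genes rose, beside 24.1% of all genes called, the 5 above with Hoxd4 (0.46, adjusted p = 0.014) and Hoxa5 (adjusted p = 0.019). Hoxa5 was not well above background on any shNTC array of day 8. Against its mean Cy5 level there, the level on day 13 was 1.28-fold higher. This is a ratio of group means and not a bound set by detection. Of these genes Hoxa2, Hoxa5 and Hoxd4 passed the brightness filter through groups that include shNTC of day 13 but not of day 8. Nothing is therefore read from the rises of these genes between the days, though they are counted above.

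Hoxb2, which patterns the hindbrain, was the HOX gene called most often, with both Cdk8 hairpins on both days. With shNTC on day 8 it read -1.38, -1.44 and -1.46. With shCdk8-1 it read -0.18, -0.33 and -0.40 and with shCdk8-2 it read -1.10, -1.0 and -1.23. All 6 knockdown arrays were above all 3 controls, and the shCdk8-1 arrays were above the shCdk8-2 arrays.

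The rise of Hoxb2 on day 8 was 1.12 for shCdk8-1 and 0.32 for shCdk8-2 (SE 0.10 in both, adjusted p = 2e-07 and 0.04). On day 13 the controls read -1.40, -1.31 and -1.34, the shCdk8-1 arrays -0.51, -0.51 and -0.50 and the shCdk8-2 arrays -0.93, -1.13 and -0.87, again without overlap. The rise was 0.84 with shCdk8-1 (adjusted p = 8.3e-06) and 0.37 with shCdk8-2 (adjusted p = 0.019). The Cy5 signal of the Hoxb2 spot was 176 to 247 units with shNTC on day 8 and 435 to 594.5 with shCdk8-1, over a local background of 80 to 91. On the same day 3 of 10 ES cell markers fell with shCdk8-1, with a median change of -0.57 (-0.24 with the refitted background) and a summed Cy5 intensity of 403900 to 541400 units against 527900 to 566200 with shNTC. With shCdk8-2 none fell (median -0.062, sum 529800 to 568500); the part of these markers in the HOX changes was not tested.

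The shCdk8-1 effect on Hoxb2 was called under every alternative tried; the smaller shCdk8-2 effects were lost with the slide as a block (adjusted p = 0.25 on day 8 and 0.19 on day 13). On day 8 the shCdk8-2 call was also lost with the replicate number as a block (log2 change 0.32), without any filter on brightness, with median centring, and when any shNTC array of that day, shCdk8-2 replicate 1 or 2, or shNTC replicate 3 of day 13 was left out (changes 0.26 to 0.34). On day 13 it was lost with median centring, and without replicate 1 or 3 of shNTC or of shCdk8-2 (changes 0.32 to 0.38). Of all 41 alternatives, 6 lost the day 13 call, with adjusted p up to 0.59. On the slide that shCdk8-2 shares with shNTC the Hoxb2 difference was 0.15 on day 8 and 0.52 on day 13. No slide holds both shCdk8-1 and shNTC of 1 day.

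**Figure D3:**
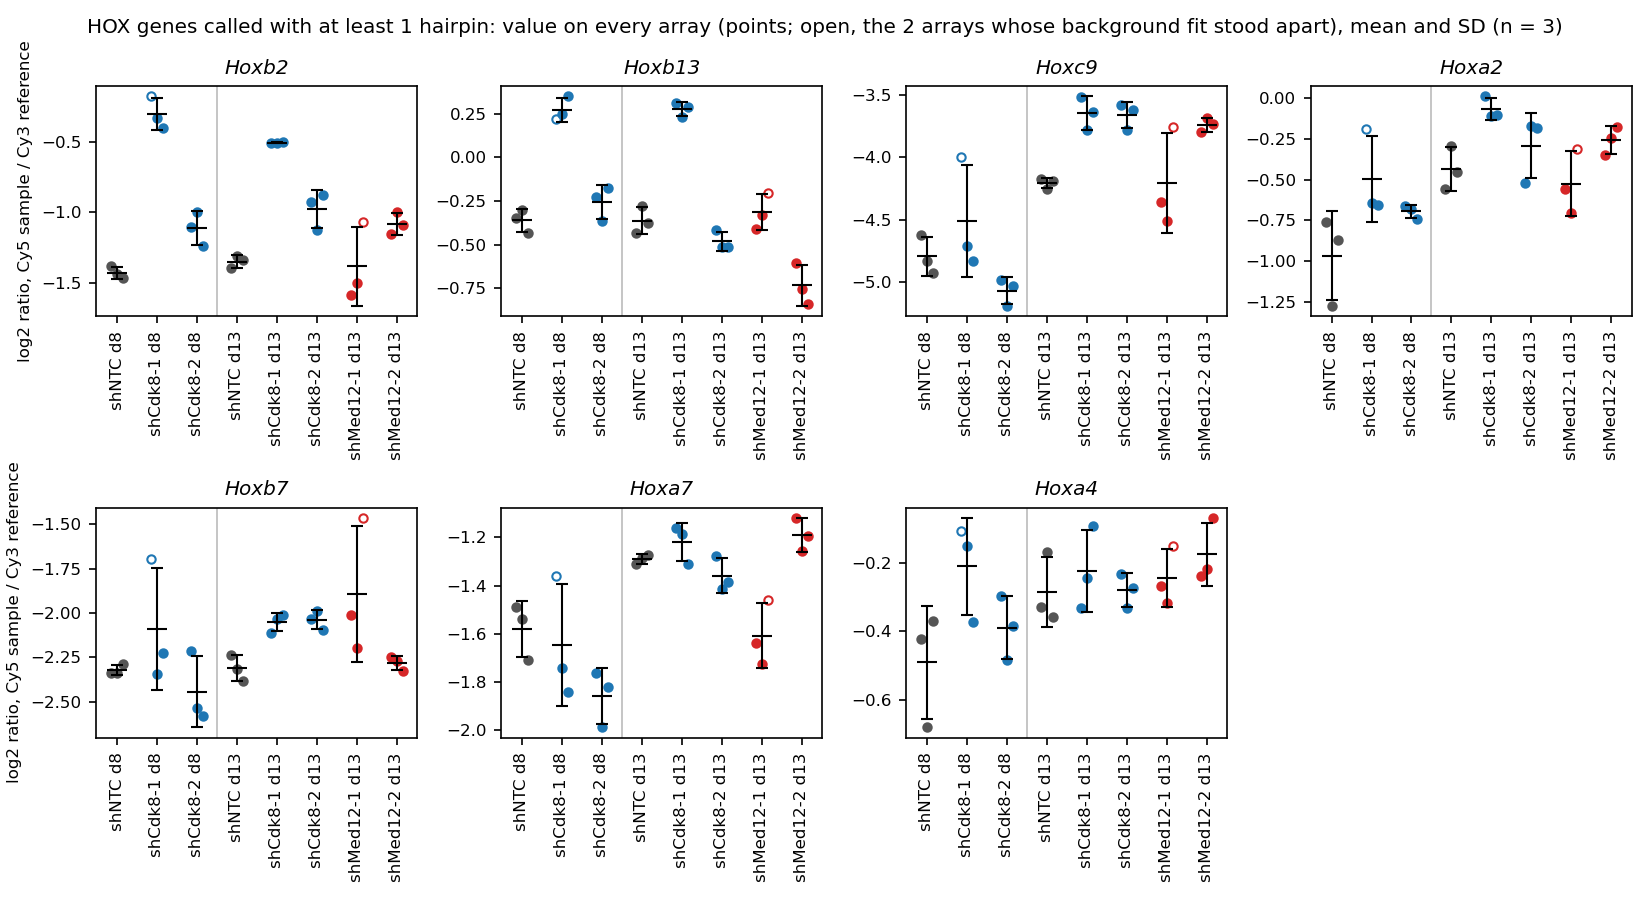
The 7 panels show HOX genes called with at least 1 hairpin, with the log2 ratio of Cy5 sample over Cy3 reference on the y axis and the 8 groups on the x axis; points are arrays, bars the mean and SD of 3, and open points the 2 arrays with a background fit that stood apart. Hoxb2 and Hoxb13 with shCdk8-1 lie above every shNTC array, and the open points lie at the edge of their group for Hoxc9 and Hoxb7.

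Hoxb13, a tail and prostate gene at the far end of its cluster, rose with shCdk8-1 alone of the Cdk8 hairpins. On day 8 it read -0.35, -0.30 and -0.43 with shNTC, 0.22, 0.25 and 0.35 with shCdk8-1, and -0.22, -0.37 and -0.17 with shCdk8-2. On day 13 the controls read -0.44, -0.28 and -0.37, shCdk8-1 0.31, 0.23 and 0.29, and shCdk8-2 -0.42, -0.51 and -0.51. The shCdk8-1 arrays stood clear of all others of their day, while shCdk8-2 overlapped shNTC on both days.

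The rise of Hoxb13 with shCdk8-1 was 0.63 on day 8 (SE 0.069, adjusted p = 2.4e-06) and 0.64 on day 13 (SE 0.069, adjusted p = 2.7e-06). The difference between the hairpins was itself called, at -0.53 on day 8 and -0.76 on day 13 (shCdk8-2 minus shCdk8-1, adjusted p = 2.3e-05 and 2.8e-07). With the Med12 hairpins the gene read -0.41, -0.33 and -0.21 for shMed12-1 and -0.61, -0.75 and -0.84 for shMed12-2. Hoxb13 fell by 0.37 with shMed12-2 (adjusted p = 0.00062), and the differences on the 2 slides that this hairpin shares with shNTC were -0.33 and -0.38. The probe was well above background on 1 of the 3 shMed12-2 arrays.

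In all, 4 HOX genes rose and none fell with shCdk8-1 on day 8, 15.4% of the 26 beside 16.9% of all genes called (8.64% higher and 8.22% lower). The other pair were Hoxa2, up 0.47 (SE 0.14, adjusted p = 0.021), and Hoxa4, a neck-level gene, up 0.28 (SE 0.089, adjusted p = 0.035). Hoxa2 read -0.76, -1.27 and -0.87 with shNTC and -0.19, -0.64 and -0.66 with shCdk8-1, where the first array is one of the 2 with a doubtful background; with the refitted background that array read -0.48 and the rise was 0.37 (adjusted p = 0.017). Hoxa2 was well above background on 2 shCdk8-1 arrays and on no shNTC array of day 8. Against its Cy5 level with shNTC, the level with shCdk8-1 was 1.17-fold higher, which is not a bound set by detection. Of 40 alternatives, 7 lost the Hoxa2 call, with adjusted p up to 0.17. Among them were the fits without that first shCdk8-1 array or without the second shNTC array (change 0.32 either way). The slide as a block was another (adjusted p = 0.13).

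Hoxa4 read -0.42, -0.68 and -0.37 with shNTC and -0.11, -0.15 and -0.37 with shCdk8-1, so the groups touch. Of 40 alternatives, 9 lost its call. Among them were the fits without the second shNTC array (0.19) and the first (0.23) or the second (0.25) shCdk8-1 array. The slide as a block was another (0.10, adjusted p = 0.76). A second, dimmer Hoxa4 probe changed by -0.052 (adjusted p = 0.73), so the probes disagree. The refitted background left 5 of 26 called beside 21.7% of all genes, the extra one being Hoxb1 (0.39, adjusted p = 1.5e-05). Hoxb1 passed the brightness filter only through the shCdk8-1 groups, was well above background on 1 of the 3 shNTC arrays of day 8 and was not so in the reference on any array, so nothing is read from this call.

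With shCdk8-2 on day 8, Hoxb2 was the single HOX gene called, 3.85% of the 26 beside 14% of all genes (7.39% higher and 6.62% lower). The median change of the 26 was 0.030, against 0.00029 over all genes. Refitting the background gave 5 called genes, beside 20.4% of all genes: Hoxb2 was among those higher, and Hoxa10 (-0.40), Hoxa7 (-0.28) and Hoxc9 (-0.27) were lower. Hoxa10 read -2.15, -2.29 and -2.29 with shNTC and -2.65, -2.69 and -2.60 with shCdk8-2, where it was well above background on 1 of 3 arrays. It passed the brightness filter through the shNTC and shCdk8-1 groups and not through shCdk8-2.

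On day 13, 3 HOX genes rose with each Cdk8 hairpin and none fell, 11.5% of the 26 beside 12.6% of all genes for shCdk8-1 (6.5% higher, 6.1% lower) and 11.6% for shCdk8-2 (5.86% higher, 5.69% lower). With shCdk8-1 these were Hoxb2, Hoxb13 and Hoxc9, and with shCdk8-2 they included Hoxc9 and Hoxb2. Hoxb2 and Hoxc9 were thus called with both hairpins, 2 of 26, beside 4.22% of all genes (2.37% higher, 1.85% lower); on day 8 Hoxb2 alone was, beside 5.1% (2.78% higher, 2.32% lower). Both hairpins are compared with the same 3 shNTC arrays.

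Hoxc9, a trunk-level gene, rose by 0.56 under shCdk8-1 and 0.55 under shCdk8-2 (SE 0.17 in both, adjusted p = 0.039 and 0.047). It read -4.17, -4.25 and -4.19 with shNTC, -3.52, -3.78 and -3.64 with shCdk8-1 and -3.58, -3.78 and -3.62 with shCdk8-2, and all 6 knockdown arrays were above all 3 controls. The calls were close to the threshold. They were lost with no filter on brightness (adjusted p = 0.056 and 0.069) and with the slide as a block (adjusted p = 0.26 and 0.25). With median centring the shCdk8-2 call was lost as well. Of the 24 fits that leave out 1 array, 6 lost the shCdk8-1 call (each shNTC and each shCdk8-1 array of day 13). The shCdk8-2 call was lost in 19 of the 24. Adjusted p in these fits ran from 0.0058 to 0.14 and from 0.0079 to 0.14. Of all 41 alternatives, 9 lost the shCdk8-1 call and 22 the shCdk8-2 call, with adjusted p up to 0.48 and 0.5. With the refitted background the SE of Hoxc9 fell to 0.080 and the adjusted p to 2.6e-05 and 4.5e-05.

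After the refit of the background 8 HOX genes rose with shCdk8-1 on day 13 and 9 with shCdk8-2, beside 18.5% and 17.5% of all genes, and none fell. Hoxa10, Hoxb2, Hoxb7 and Hoxc9 were then among those called with both hairpins, beside 7.01% of all genes. Hoxa10, a posterior gene, read -2.14, -2.31 and -2.16 with shNTC, -1.74, -1.60 and -1.71 with shCdk8-1 and -1.99, -1.93 and -1.71 with shCdk8-2. Its changes of 0.52 and 0.32 carried adjusted p of 0.18 and 0.46 with the background fitted on all spots, and 7.7e-05 and 0.0075 with the refitted one.

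**Figure D4:**
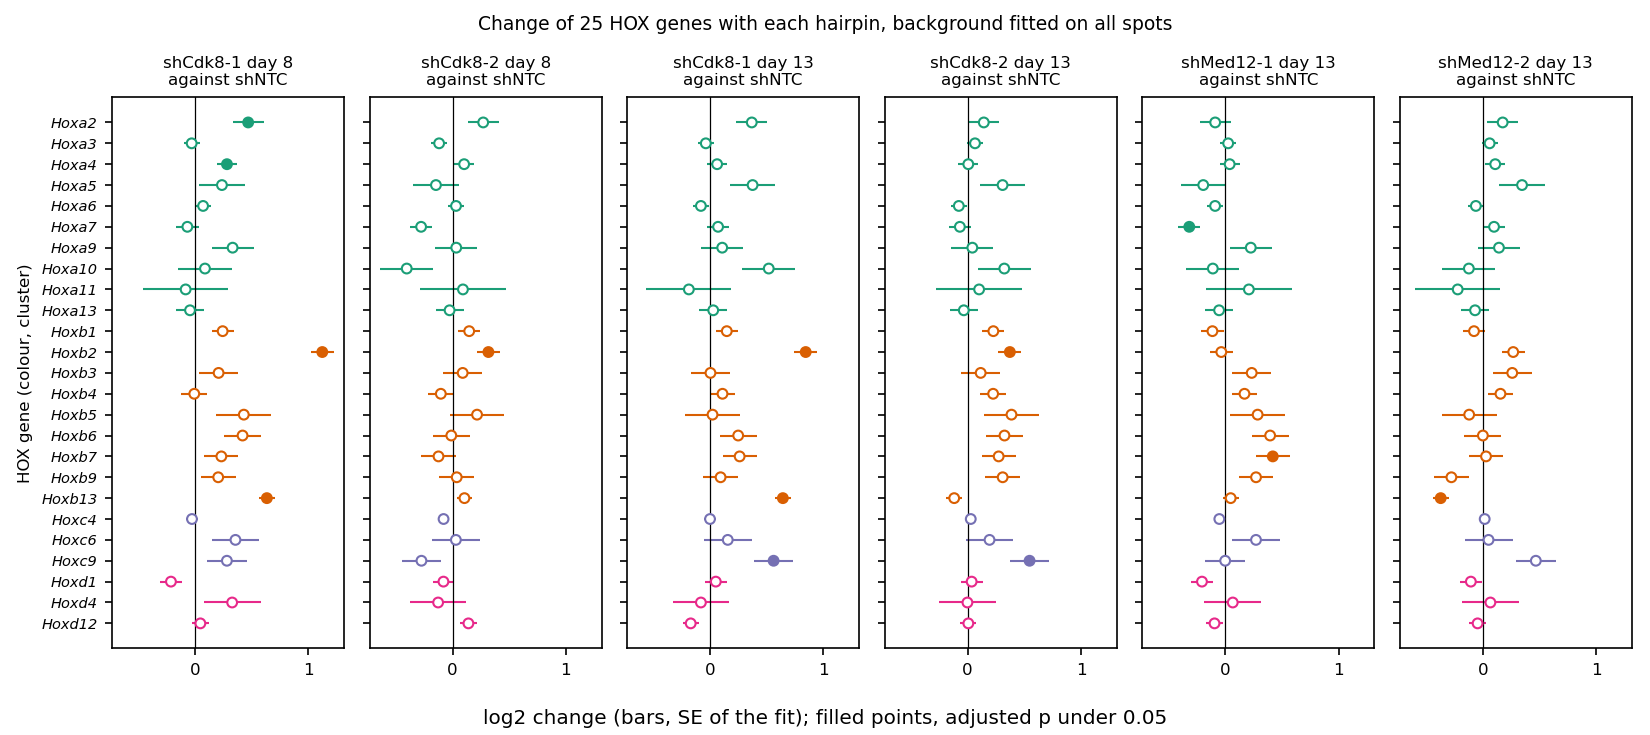
The 6 panels give the log2 change of 25 of the tested HOX genes against shNTC of the same day, with the background fitted on all spots; bars are the SE of the fit, colours the clusters and filled points adjusted p under 0.05. The largest changes are those of Hoxb2 and Hoxb13 with shCdk8-1 on both days.

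With the Med12 hairpins 2 HOX genes were called each, 7.69% of the 26 beside 24.9% of all genes for shMed12-1 (12.9% higher, 12% lower) and 17.8% for shMed12-2 (9.04% higher, 8.77% lower). None was called with both hairpins in the same direction, beside 8.6% of all genes (4.79% higher, 3.82% lower). With shMed12-1 Hoxb7 rose by 0.42 (SE 0.15, adjusted p = 0.048) and Hoxa7 fell by 0.32 (SE 0.098, adjusted p = 0.023). Hoxb7 read -2.24, -2.32 and -2.38 with shNTC and -2.01, -2.20 and -1.46 with shMed12-1, the last being the second array with a doubtful background. Refitted, that array read -2.01 and the rise was 0.24 (adjusted p = 0.032). The call was lost in 19 of 24 fits that leave out 1 array, with changes from 0.21 to 0.57. Of all 41 alternatives, 25 lost it. Hoxa7 read -1.31, -1.28 and -1.28 with shNTC and -1.64, -1.72 and -1.46 with shMed12-1, below every control. Its call was lost without any 1 shNTC array of day 13 or the first or second shMed12-1 array (changes -0.33 to -0.26). It was also lost with the slide as a block (adjusted p = 0.31) and with median centring, 7 of 41 alternatives in all.

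Of the HOX genes called with shMed12-2, Hoxb13 fell, as above. On refitting, 1 of the 26 was called with both Med12 hairpins in the same direction, beside 10.9% of all genes.

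With the refitted background some HOX genes changed in opposite directions with the Med12 hairpins. These hairpins shared no slide with each other, and shMed12-1 shared none with shNTC of day 13. Neither of these comparisons can thus be made within a slide. With the refitted background 7 HOX genes were called with shMed12-1, 2 higher and 5 lower, beside 26.8% of all genes. With shMed12-2 there were 5, 4 higher and 1 lower, beside 24.1%. Hoxb2 and Hoxc9 fell with shMed12-1, with changes of -0.20 and -0.24, and rose with shMed12-2 by 0.27 and 0.47. Hoxa5 was likewise called lower with shMed12-1 and higher with shMed12-2 (0.35). Hoxa5 was not well above background on any shMed12-1 array. Against its mean Cy5 level there, with the background fitted on all spots, it was 1.26-fold higher with shNTC and 1.58-fold higher with shMed12-2. These are ratios of group means and not bounds set by detection. Hoxc9 read -4.36, -4.51 and -4.47 with shMed12-1 and -3.79, -3.68 and -3.74 with shMed12-2, with the controls at -4.25 to -4.17 between them. The differences between the hairpins were called with the refitted background (adjusted p = 1e-05 for Hoxa5, 1.6e-05 for Hoxb2 and 5.9e-07 for Hoxc9). Hoxa5 passed the brightness filter through groups that include shNTC of day 13 and shMed12-2 but not shMed12-1. Nothing is therefore read from its fall with shMed12-1 or its difference between the hairpins. With the background fitted on all spots, Hoxb2 alone of the 3 was called (0.30, adjusted p = 0.036). With the slide as a block that call was lost (0.32, adjusted p = 0.34). The refitted differences were not tested with that block.

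**Figure D5:**
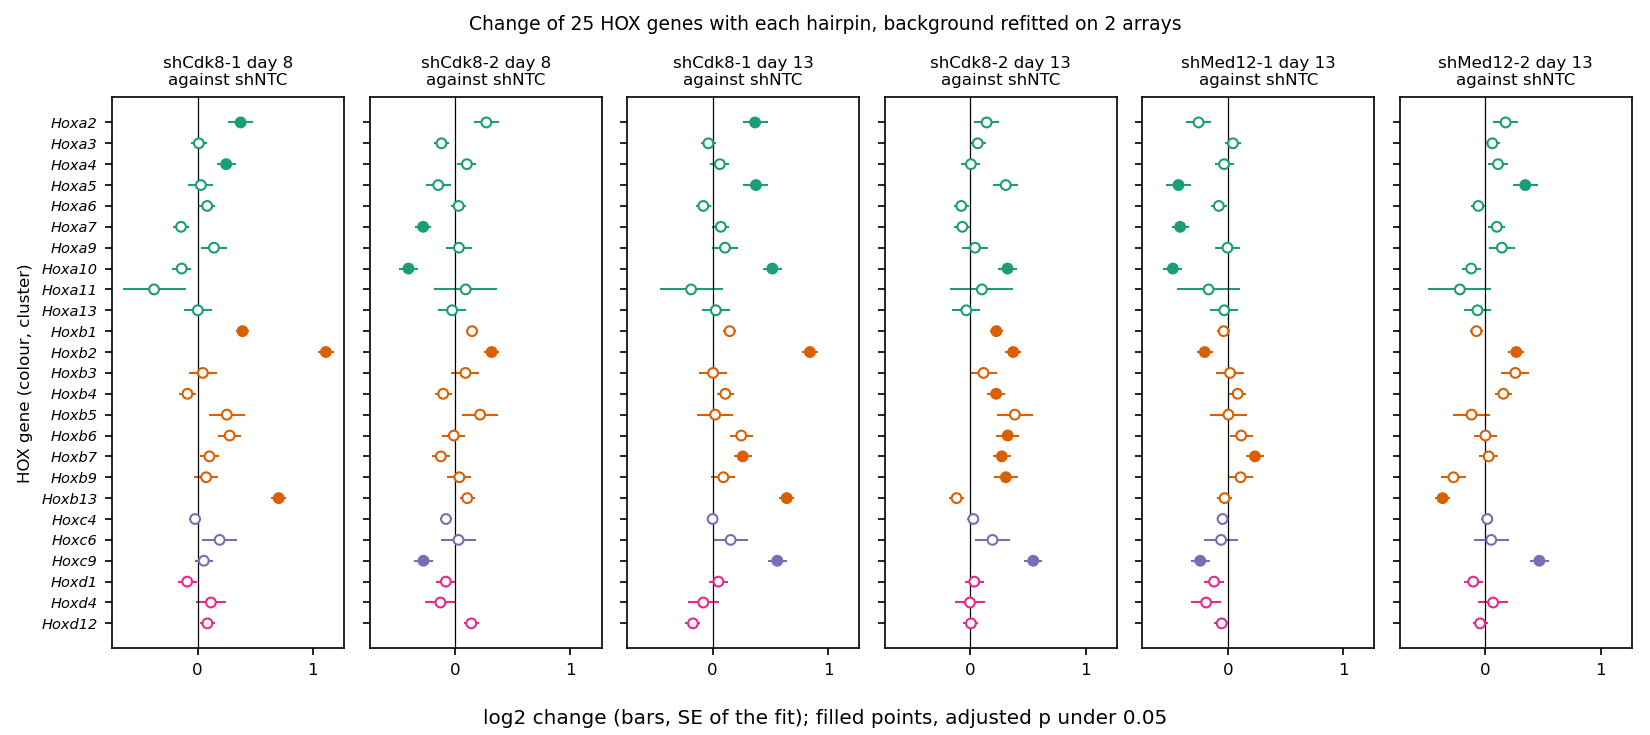
The same 25 genes and 6 comparisons with the background of 2 arrays refitted, axes and symbols as in the plot of changes with the background fitted on all spots. Bars are shorter for every gene shown but Hoxc4, 4 to 8 genes are filled in each, and Hoxa5, Hoxb2 and Hoxc9 lie on opposite sides of 0 for the 2 Med12 hairpins.

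Averaged over hairpins, the Med12 effect on day 13 was below the Cdk8 effect for 5 HOX genes, 19.2% of the 26 beside 18.2% of all genes (9.69% higher, 8.5% lower). The differences were -0.54 for Hoxa10, -0.49 for Hoxb2, -0.42 for Hoxb13, -0.28 for Hoxb1 and -0.20 for Hoxd1 (adjusted p = 0.028, 4.2e-05, 3e-06, 0.0065 and 0.048), and no HOX gene was called higher. Hoxb1 was well above background on 1 of the 3 shMed12-1 arrays and on no shMed12-2 array. It passed the filter only through the shCdk8-1 groups, so nothing is read from its difference. Hoxd1 was well above background on 1 array of each Med12 hairpin and passed through shNTC of day 13. Neither Hoxb1 nor Hoxd1 was well above background in the reference. Hoxa10 was well above background on 1 shMed12-1 array and 2 shMed12-2 arrays, and passed through the shNTC and shCdk8-1 groups. With the slide as a block Hoxb1, Hoxb2 and Hoxb13 were still called, and Hoxa10 (-0.51, adjusted p = 0.12) and Hoxd1 (-0.24, adjusted p = 0.09) were not. With median centring Hoxb2 and Hoxb13 were still called, and Hoxa10 (adjusted p = 0.14), Hoxb1 (adjusted p = 0.056) and Hoxd1 (adjusted p = 0.28) were not. For Hoxb13 the average covers Cdk8 hairpins that differ, since shCdk8-2 lay below its control. On refitting, 10 genes were lower, beside 22.6% of all genes, and Hoxd1 was no longer called (adjusted p = 0.066).

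The Cdk8 effect, averaged over hairpins, was compared between days. No HOX gene was called in this limma contrast with the background fitted on all spots (2 at unadjusted p under 0.05, and 2.37% of all genes called, 1.45% higher and 0.92% lower), and 3 were with the refitted background, beside 5.72% of all genes. Among these, Hoxa10 (0.69, adjusted p = 0.00011) and Hoxc9 (0.66, adjusted p = 0.00015) were then higher relative to control on day 13 than on day 8.

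The hairpins against Cdk8 differed from each other for 3 HOX genes on day 8 (11.5%, beside 17.7% of all genes, 9.17% higher and 8.57% lower) and 2 on day 13 (7.69%, beside 11.7%, 5.55% higher and 6.13% lower), all lower with shCdk8-2. On both days Hoxb2 and Hoxb13 were among them. The difference, shCdk8-2 minus shCdk8-1, was -0.81 for Hoxb2 on day 8 (adjusted p = 1.3e-05) and -0.47 on day 13 (adjusted p = 0.0034). For Hoxc9 it was -0.56 on day 8 (adjusted p = 0.032), and -0.33 once the background was refitted. Between shMed12-2 and shMed12-1 4 HOX genes differed (15.4%, beside 21.5% of all genes, 10.3% higher and 11.2% lower), with differences of 0.42 for Hoxa7, 0.30 for Hoxb2, -0.55 for Hoxb9 and -0.42 for Hoxb13. With the slide as a block, the differences of Hoxb13 in all 3 pairs and of Hoxb2 on day 8 were still called, and the others were not (adjusted p = 0.054 to 0.65). The Cdk8 hairpins also differed in the Cdk8 value itself, which was higher with shCdk8-2 by 0.40 on day 8 and by 0.31 on day 13.

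By cluster, the median change with shCdk8-1 on day 8 was 0.24 for the 9 Hoxb genes, and 0.25 with the refitted background, beside 0.0038 and 0.0045 over all genes. The Hoxa median moved from 0.071 to 0.014 on refitting, that of the 3 Hoxc genes from 0.28 to 0.054 and that of the 3 Hoxd genes from 0.047 to 0.085. On day 13 the Hoxb median was 0.15 with shCdk8-1 and 0.27 with shCdk8-2, and the Hoxd median -0.081 and 0.0061, the same after the refit, which changes no array of these groups. With shMed12-1 the Hoxb median was 0.23, and 0.020 with the refitted background, while with shMed12-2 it was 0.00096. By paralog number, the calls with the 6 hairpins included group 2 (5 of 12 gene and comparison pairs), group 13 (3 of 12), group 9 (2 of 18), group 7 (2 of 12) and group 4 (1 of 24), and groups 3, 5, 6, 10, 11 and 12 had none.

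Arrays of the 2 groups did not overlap for 4 HOX genes with shCdk8-1 on day 8 (30.9% of all genes), 9 with shCdk8-2 on day 8 (34% of all), 11 (shCdk8-1) and 9 (shCdk8-2) of day 13 (35.8% and 34.3% of all), and 4 and 10 with the Med12 hairpins (42.5% and 43.3% of all). In a fit with no filter, 36 HOX genes entered; with shCdk8-1 on day 8 the 10 extra genes changed by -0.19 to 0.28 and none was called, and in each of the other comparisons at most 1 was. On day 13 the counts of 3 called with each Cdk8 hairpin in that fit each include 1 of these extra genes.

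Genes just outside the clusters were measured as neighbours. Of 24 flanking genes, 1 to 3 rose and 1 to 6 fell in each hairpin comparison, with medians of -0.019 to 0.020. Together these were 2 to 8 of 24 called, beside 11.6% to 24.9% of all genes called in the same comparisons. Cbx3, which encodes a heterochromatin protein and lies beside Hoxa, changed by 0.25 and 0.30 under the Cdk8 hairpins on day 8, both called, and was also called higher with shCdk8-1 on day 13 (0.33) and with shMed12-2 (0.31). Ttll6, beside Hoxb, fell with shCdk8-1 on both days (-0.51 and -0.66) and with both Med12 hairpins (-0.50 and -0.94).

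Partners and regulators of HOX genes were counted where both hairpins against a target changed them in the same direction, which held for 5.1% of all genes with Cdk8 on day 8, 4.22% on day 13 and 8.6% with Med12. Of 9 TALE cofactor genes, Meis2 rose on day 13 under both hairpins against Cdk8 (1.03 and 0.46), and Meis3 under both against Med12 (0.32 and 0.36). With single hairpins Meis2 also rose by 1.06 with shCdk8-1 on day 8 and by 0.86 with shMed12-2. None of 5 tested ParaHox and caudal genes and none of 11 tested trithorax genes changed with both hairpins of any target.

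Of 19 tested genes of the retinoic acid pathway none changed with both Cdk8 hairpins. With both Med12 hairpins 3 of the 19 did, among which Rdh10, which oxidises retinol, rose by 0.37 and 0.51, while Stra8, a target gene of retinoic acid, fell (-0.50 and -1.29). Of 26 tested Polycomb genes none changed with both Cdk8 hairpins, and with both Med12 hairpins 3 did: Phc2 rose by 0.58 and 0.21 and Rbbp7 by 0.37 and 0.26, while Phc1 fell (-0.48 and -0.21). Of 13 tested axial and posterior genes, Dusp4 fell with both Cdk8 hairpins on day 8 (-0.22 and -0.34). Otx2, an anterior gene, was called with both hairpins of a target only with the refitted background. On day 8 its change with shCdk8-1 was -0.14 (adjusted p = 0.81) with the background fitted on all spots and 0.34 (adjusted p = 0.0043) refitted, so the sign turned, and with shCdk8-2 it was 0.74 in both (adjusted p = 0.11 and 1.3e-06). On day 13 the refitted changes were -0.38, -0.31, -0.57 and -0.37, in the order shCdk8-1 and shCdk8-2, then shMed12-1 and shMed12-2.

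Markers of other cell types moved on the same arrays. Of 19 tested fibroblast markers (of 20 listed), 4 rose on day 13 under both Cdk8 hairpins and 7 under both Med12 hairpins, while 3 (Pdgfrb, Acta2 and Tagln) fell on day 8 under both Cdk8 hairpins. Acta2, smooth muscle actin, rose on day 13, with changes of 1.39 (shCdk8-1), 0.58 (shCdk8-2), 1.81 (shMed12-1) and 2.07 (shMed12-2). Those of Tagln were 0.59, 0.82, 1.47 and 1.33 in the same order. The summed Cy5 intensity of the list on day 13 was 44050 to 46360 units with shNTC, 70490 to 74600 with the Cdk8 hairpins and 93610 to 102000 with the Med12 hairpins, and Fap, a defining marker, was not well above background on any array. On day 8 the sum was 33730 to 35310 units with shNTC and 25440 to 31700 with the Cdk8 hairpins.

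The sum of 10 ES cell markers on day 13 was 498600 to 517400 units with shNTC, 434400 to 577000 with the Cdk8 hairpins and 383000 to 481400 with the Med12 hairpins, and Klf4 and Tcl1 fell on that day with both hairpins of each target. With shMed12-1, 8 of the 10 fell and the median change was -0.87 (-0.59 with the refitted background), against 2 of 10 and -0.36 with shMed12-2. With shCdk8-1 and shCdk8-2 on day 13, 3 and 2 fell, with medians of -0.34 and -0.23. Of 10 tested neural markers, Nes rose under both Cdk8 hairpins (0.87 and 0.30 on day 8, 0.73 and 0.64 on day 13), and Tubb3 fell with both Med12 hairpins. The sum of the neural list on day 13 was 10950 to 11410 units with shNTC, 14750 to 16270 with the Cdk8 hairpins, 9548 to 10240 with shMed12-1 and 17690 to 18420 with shMed12-2. Of 10 tested mesoderm markers none changed with both hairpins of any target with the background fitted on all spots. With the refitted one Pdgfra, which is also on the fibroblast list, was called lower with both Cdk8 hairpins on day 8 (-0.42 and -0.82) and with both Med12 hairpins (-0.33 and -0.27). The mesoderm list's sum on day 13 was 1637 to 1660 units with shNTC and 1511 to 1893 with the hairpins. The part of these marker shifts in the HOX results was not tested.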

How the data were processed

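Total RNA of 24 R1 cultures was profiled on 2-colour Agilent arrays, Cy5 for the sample and Cy3 for the reference, per the labels. The deposited scanner files, read with Agilent Feature Extraction 10.7 per the submitters' processing notes, hold spot and background intensities and log10 ratios for 45018 spots. The deposited table of the authors' own values is in log2 units and equals the rescaled log10 ratios (slope 1, Cy5 over Cy3, column medians -0.0049 to 0.1212); its centring is unknown. Median intensities were background-corrected with normexp (offset 50) and normalized by loess within each array, with control and outlier spots at weight 0 (limma 3.58.1, R 4.3.3). Spots of a probe were averaged. Kept probes had Cy5 signal flagged well above background on every array of 1 group or more; 63 probes with a missing value were dropped, and the brightest probe stood for each of 22394 genes. SystematicName accessions were named through RefSeq's gene table, which named 22951 of 41174 probes.

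All 8 group means were fitted together (lmFit and eBayes, 16 residual degrees of freedom), with Benjamini-Hochberg adjustment over all genes; "called", "rose" and "fell" mean adjusted p under 0.05. Of 12 contrasts, 6 set a hairpin against shNTC of its day. The slides, 8 in all, were told apart by a code in the names of the scanner output, since the sample titles give none. Where a group had a probe above background and the other had none, the fold was taken against the other group's Cy5 level. That level was raised where it fell below the lowest signal well above background of any probe on the array, which applied to Hoxa2. That lowest signal is not the detection limit of the Hoxa2 probe, so the fold is not a bound. For Hoxa5 the level was the group's own mean. Members and lists were chosen with earlier results of these data known. Some genes, though counted, are not reported here. The other HOX genes called in a contrast are named, with up to 4 genes per related list called with both hairpins; Cdk8 and Med12 check the labels. In no pair of replicates were files identical. Same-numbered replicates did not deviate together (2 of 18 pair correlations over 0.1), so they were not treated as pairs. The number of arrays limits the precision.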

Additional observations from a re-analysis of the deposited data

Results flagged for a closer look

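These differences between hairpins or between knockdowns passed the test of the difference itself (limma, adjusted over all genes). The Med12 effect on day 13 was below the Cdk8 effect for Hoxa10 (-0.54, adjusted p = 0.028), Hoxb1 (-0.28, adjusted p = 0.0065), Hoxb2 (-0.49, adjusted p = 4.2e-05), Hoxb13 (-0.42, adjusted p = 3e-06) and Hoxd1 (-0.20, adjusted p = 0.048). Hoxb1 was well above background on 1 of the 3 shMed12-1 arrays and on none of shMed12-2, and Hoxd1 on 1 array of each, so both values rest on signals near background. Hoxb1 passed the brightness filter only through the shCdk8-1 groups, so nothing is read from its difference. Hoxa10 was well above background on 1 shMed12-1 array and 2 shMed12-2 arrays. It passed the filter through the shNTC and shCdk8-1 groups. The shCdk8-2 value was below the shCdk8-1 value on day 8 for Hoxb2 (-0.81, adjusted p = 1.3e-05), Hoxb13 (-0.53, adjusted p = 2.3e-05) and Hoxc9 (-0.56, adjusted p = 0.032). On day 13 the same held for Hoxb2 (-0.47, adjusted p = 0.0034) and Hoxb13 (-0.76, adjusted p = 2.8e-07). Between shMed12-2 and shMed12-1, the difference was 0.42 for Hoxa7 (adjusted p = 0.0042), 0.30 for Hoxb2 (adjusted p = 0.036), -0.55 for Hoxb9 (adjusted p = 0.014) and -0.42 for Hoxb13 (adjusted p = 0.00017).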

How the results depend on the processing

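The counts of HOX genes called as designed were 4 and 1 (shCdk8-1 and shCdk8-2, day 8), 3 and 3 (day 13), 2 and 2 (shMed12-1 and shMed12-2), 5 (shNTC between days), 0 (Cdk8 effect between days), 5 (Med12 against Cdk8) and 9 (between hairpins, 3 pairs summed); other settings are given in this order, where they moved a count by over 1.5 times. With the refitted background, an alternative added after seeing the data, the second to the sixth counts became 5, 8, 9, 7 and 5, and the last 3 3, 10 and 19. Without the 2 arrays concerned, these were 5, 9, 9, 4 and 6, and 4, 10 and 15. With no background correction they were 4, 8, 8, 6 and 7, and 3, 10 and 19. With the scanner's log ratios, and equally with the authors' table, all 10 counts were 9, 7, 7, 7, 7, 7, 8, 3, 13 and 24. With Cy5 alone the second to the sixth were 2, 7, 6, 6 and 6, and the last 3 2, 10 and 19. Median centring gave 2 and 0 on day 8, 0 for shCdk8-2 on day 13, 0 and 1 for Med12, 2 for shNTC, 2 for Med12 against Cdk8 and 4 between hairpins. The slide as a block gave 2 and 0 on day 8, 1 for shCdk8-2 on day 13, 0 for shMed12-1, 3 for shNTC, 3 for Med12 against Cdk8 and 4 between hairpins. Detection on all 24 arrays gave 1 and 2 on day 8, 1 for shMed12-2, 3 for shNTC and 1 for Med12 against Cdk8. No filter gave 0 for shCdk8-2 on day 8. A fit of only the groups compared gave 2 and 2 on day 8, 8 and 7 on day 13, 1 and 7 for Med12, and 3 for Med12 against Cdk8. The cause of these shifts was not tested. With the replicate number as a block the counts were 4, 1, 3, 3, 2, 2, 5, 0, 5 and 10, and of the named changes Hoxb2 with shCdk8-2 on day 8 alone lost its call. Leaving out 1 array gave 2 to 5, 0 to 2, 2 to 5, 1 to 4, 0 to 3, 2 to 4, 1 to 5, 0 to 1, 3 to 6 and 7 to 15. None of the 15 HOX changes called against shNTC reversed its sign. The changes of Hoxb2 and Hoxb13 with shCdk8-1 on both days and of Hoxb13 with shMed12-2 kept their call wherever the gene was tested. Hoxb13, detected on 21 arrays, did not enter the fit of genes detected on all 24. HOX probes near background limit what can be seen in Hoxc and Hoxd.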
